A study of Mus musculus with 7 samples.

Results

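The genes described here encode the partners and the inhibitors of MYOD, the transcription factor that commits muscle stem cells (MuSCs) to differentiation. They were 7 of the 21883 protein-coding genes of the RefSeq annotation: the 3 E protein genes Tcf3, Tcf4 and Tcf12, and the 4 Id genes Id1, Id2, Id3 and Id4. In all 7 libraries, every ATAC-seq peak that overlapped the RefSeq span of a member or the 20 kb on either side was taken. Overlapping peaks of the libraries were merged, which gave 106 regions at the members of 95163 regions in the series. The rule that takes the regions uses no measured value.

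E proteins are basic helix-loop-helix factors found in most tissues that pair with tissue-specific partners such as MYOD and MYF5. The pairs bind E-boxes, short DNA motifs with the letters CANNTG, and muscle genes need them for their activation in differentiating myoblasts. Id proteins carry the same pairing domain but no DNA-binding region, so they hold E proteins in pairs that cannot bind DNA. Id genes are classical targets of BMP signalling, which keeps muscle progenitors from differentiating.

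ATAC-seq, in which the Tn5 transposase cuts and tags accessible DNA, was performed on 5000 freshly sorted MuSCs per library from the hindlimb muscle of male mice aged 5 to 6 weeks. There were 4 Nedd4L-cKO libraries, from Nedd4L fl/fl Pax7 cre/+ mice on a C57BL/6 background, and 3 WT libraries, with 1 mouse per library. Pax7-Cre acts in every cell that descends from a PAX7-expressing progenitor, so myofibres of these mice also carry the deletion. Whether the WT mice carried Cre or floxed alleles is not given in the sources used here. The comparison asked whether the loss of the E3 ubiquitin ligase NEDD4L alters the accessibility of chromatin in these cells.

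The libraries held 14.4 to 20.1 M tags (mega, after removal of duplicates) and 69302 to 79158 peaks. The deepest one, Nedd4L-cKO replicate 4, also had the most peaks, and WT replicate 3 was the only library sequenced on lane 2. Promoters of all 8 MuSC marker genes, Pax7 and Myf5 among them, were called in all 7 libraries. Promoters of 0 of 4 immune markers were called in any library, whereas 1 of 4 endothelial (Kdr), 1 of 4 fibro-adipogenic (Pdgfrb), 3 of 4 myofibre and 2 of 3 Schwann cell markers were called in all 7. The fibro-adipogenic marker Dcn was called in 2 Nedd4L-cKO and 3 WT libraries, and the myofibre marker Ckm in 3 and 2. The span of Nedd4l itself held 31 to 35 peaks in Nedd4L-cKO and 33 to 34 in WT libraries. Peaks do not check the deletion, which removes 1 floxed exon.

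The starts of Id2, Id3, Id4 and Tcf12 are shown first. Id2 and Id3 had the widest gaps between pileup and fold among the members, described after the calls, and Id4 and Tcf12 are shown for comparison. The gap of Id1 was close to that of Id2, but Id1 and Tcf4 had no sequence in the promoter set used. Tcf3 had one and is not shown. The sequences are RefSeq sequences of GRCm38.p6, the assembly of mm10, printed 5′ to 3′ on the strand of the gene and ending before the gene's outermost start or, for the internal start of Tcf12, before that start. Capitals mark E-boxes (CANNTG on either strand) and GGCGCC, a motif of BMP-responsive SMAD elements.
Id2 promoter, chr12:25096093-25096342, minus strand: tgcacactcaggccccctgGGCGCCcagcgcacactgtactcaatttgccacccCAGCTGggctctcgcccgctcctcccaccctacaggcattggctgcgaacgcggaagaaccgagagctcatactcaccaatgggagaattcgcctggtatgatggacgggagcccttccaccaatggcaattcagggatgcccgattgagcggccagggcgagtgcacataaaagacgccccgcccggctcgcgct
Id3 promoter, chr4:136143572-136143821, plus strand: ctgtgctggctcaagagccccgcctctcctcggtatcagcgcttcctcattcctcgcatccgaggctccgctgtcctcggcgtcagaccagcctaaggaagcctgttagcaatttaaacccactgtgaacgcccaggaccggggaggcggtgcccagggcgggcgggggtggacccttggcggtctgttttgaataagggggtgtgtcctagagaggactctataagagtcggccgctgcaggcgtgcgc
Id4 promoter, chr13:48260866-48261115, plus strand: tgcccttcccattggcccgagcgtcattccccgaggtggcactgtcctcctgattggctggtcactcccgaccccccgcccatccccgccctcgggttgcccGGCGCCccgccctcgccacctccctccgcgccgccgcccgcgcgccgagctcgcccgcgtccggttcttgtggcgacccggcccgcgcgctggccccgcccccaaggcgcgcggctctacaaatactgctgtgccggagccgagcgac
Tcf12 promoter, chr9:72111894-72112069, minus strand: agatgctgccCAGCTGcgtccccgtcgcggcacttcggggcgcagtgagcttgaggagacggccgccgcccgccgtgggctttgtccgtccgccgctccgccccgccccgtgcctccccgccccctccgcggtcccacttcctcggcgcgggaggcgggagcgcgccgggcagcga
Tcf12 internal start, chr9:71896097-71896346, minus strand: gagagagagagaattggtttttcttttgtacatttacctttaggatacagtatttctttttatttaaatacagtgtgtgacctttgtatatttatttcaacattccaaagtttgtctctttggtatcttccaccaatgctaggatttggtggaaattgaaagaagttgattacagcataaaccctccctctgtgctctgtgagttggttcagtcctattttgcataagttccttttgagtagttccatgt

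Id2 and Tcf12 each held 1 E-box in these stretches, in both cases CAGCTG. It began 196 bases upstream of the start of Id2 and 240 bases upstream of a start of Tcf12. CAGCTG occurred in 13.0% of 32851 promoter windows of 250 bases and in 9.0% of windows cut like the 176 bases of Tcf12, and any CANNTG, which includes CAGCTG, occurred in 66.2% and 54.7%. GGCGCC was present once each in Id2 and Id4, against 9.59% of all windows of 250 bases. The letters CCAAT, on either strand, were present at 3 places in Id2, 2 in Id4 and 2 at the internal Tcf12 start, against 33.8% of windows with at least 1. Id3 held none of these motifs in its window, nor did it hold CAGGTG, GTCTAGAC or TATAAA. The internal Tcf12 start was poor in G and C, at 34.8% of bases and with 0 CG pairs, whereas Id2 and Id3 had 62.8%, Id4 75.6% and the outer Tcf12 stretch 78.4%. The median of all windows was 52.4%.

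Promoters of all 7 members were open in both genotypes. A peak lay within 1 kb of an annotated start of each member in all 7 libraries, as it did for 63.3% of 21436 protein-coding genes with a known start. These calls were the same in Nedd4L-cKO and WT MuSCs. The Tcf4 call depended on the window, since its peak began 569 bases inside the gene. Only the outer starts of Tcf4 and Id1 were used.

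The level of each promoter was read as a percentile within its own library, because pileup, the mean number of extended tags over a peak, is not scaled to depth. The weakest peak has 0 and the strongest 100. By pileup, Id3 and Id2 were at the top of all peaks. Id3 lay at the 99.8th, 99.3rd, 99.7th and 99.5th percentile in the 4 Nedd4L-cKO libraries and at 99.7, 99.5 and 99.5 in the 3 WT libraries. Id2 followed at 98.9, 99.0, 98.2 and 98.0 in Nedd4L-cKO and 97.9, 99.2 and 99.2 in WT libraries. The ranges of the genotypes overlapped at both genes.

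The other members followed in the order Tcf3, Tcf4, Id1, Tcf12 and Id4, with median pileup percentiles of 95.9, 94.8, 94.3, 89.2 and 87.9 over the 7 libraries. The ranges of Tcf3, Tcf4 and Id1 overlapped, as did those of Tcf12 and Id4. The lowest library of Id1, at 93.6, was barely above the highest of Tcf12, at 93.5. Over 12459 promoter regions called in all libraries, the strongest by pileup of each gene, the median was 85.9. Each member lay above it by its strongest promoter region. Id4 and Tcf12 were near the middle, at the 53.8th and 57.6th percentile of the promoters of 13740 genes. The internal start of Tcf12 was lower, at pileup percentiles of 55.3 to 64.0 in the Nedd4L-cKO libraries.

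By fold enrichment, the pileup divided by the local background of the same library, the order turned around. The 3 E protein promoters had median percentiles of 79.9 (Tcf4), 79.8 (Tcf12) and 76.2 (Tcf3), close to the median of 78.4 over all promoter regions, with ranges that overlapped. Id4 lay at 50.3, below all libraries of Tcf3. Id2 lay at 8.15 and Id1 at 4.25, with overlapping ranges. Id3 came last at 0.165, with 0.0592, 0.0647, 0.167 and 0.195 in Nedd4L-cKO and 0.165, 0.231 and 0.113 in WT libraries. The peak with nearly the highest pileup of its library thus had nearly the lowest fold, 1.77 to 1.90 times its background.

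**Figure D1:**
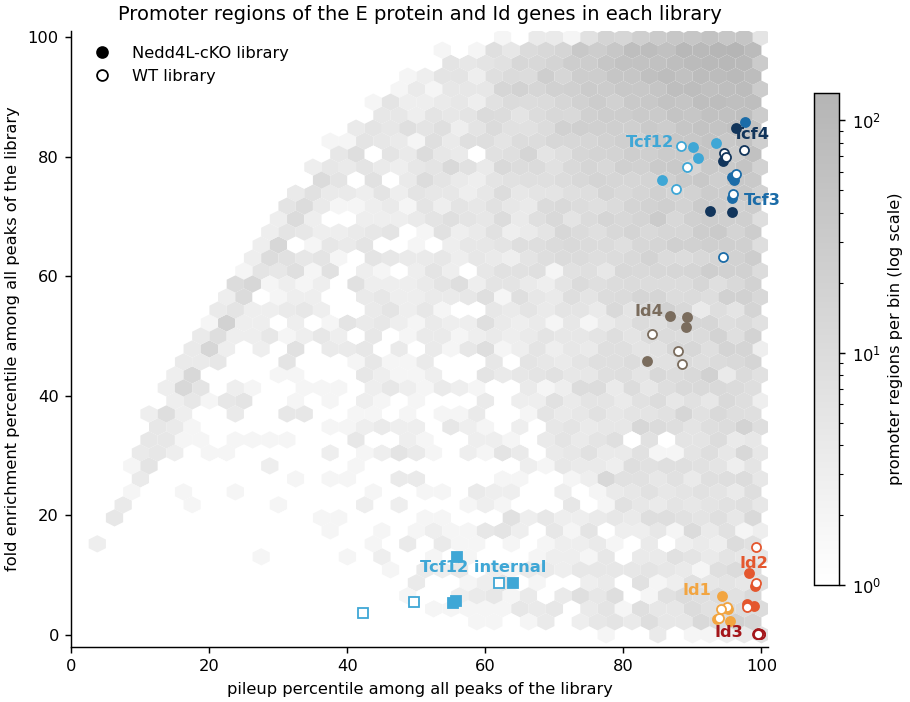
Pileup percentile (x axis) and fold enrichment percentile (y axis) of the promoter regions of the 7 genes; each point is 1 library (filled, Nedd4L-cKO, n = 4; open, WT, n = 3; squares, the internal start of Tcf12), and grey bins count all promoter regions by their medians over libraries. Id1, Id2 and Id3 sit at the lower right, with median pileup percentiles of 94.3 to 99.5 and fold percentiles of 0.165 to 8.15, while the outer promoters of the E proteins sit at the upper right among most other promoters.

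A gap of over 80 points between both percentiles was found at 3 of the 7 members, Id1, Id2 and Id3, against 2.5% of all promoter regions. Their gaps of 90.0, 90.8 and 99.4 points ranked at the 99.1st, 99.2nd and 99.98th percentile of all promoters. The same gap was present at 5 of the 8 MuSC marker promoters, at 4 of 21 promoters of other E-box factors and their regulators, and at 1 of 8 BMP pathway promoters, Smad6. Myf5 was in both of the first lists. Heyl, a Notch target that is high in quiescent MuSCs, was among them at a fold percentile of 0.616 and a pileup percentile of 99.4. Myod1 was not, at 35.5 and 97.1.

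The gap is set by the local background, which the peak caller took from up to 10 kb around each peak when it exceeded the genome-wide level. Dividing it out of each peak gave a background of 21.9 times the genome-wide level at the Id3 promoter (range 19.7 to 28.0 over the libraries), 13.6 times at Id2 and 11.3 times at Id1. It was 6.31 times at Tcf3, 5.88 at Tcf4, 5.75 at Id4 and 4.59 at Tcf12, and the median over all promoter regions was 3.99 times. No control was used, so this background came from the library itself and includes the tags of the called peak. Tags were thus dense over the kilobases around the Id1, Id2 and Id3 starts, called peaks included. The share beyond the called peak was not measured. The values of the genotypes overlapped at every one of these promoters.

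The peaks next to the Id promoters lie within the same 10 kb, so their background largely restates that of the promoter. At Id3, the region 3.31 kb upstream of the start had a pileup percentile of 99.5 and a background of 15.6 times, and the region 3.55 kb downstream had 97.3 and 17 times. At Id2, 2 regions 2.88 and 4.67 kb upstream had backgrounds of 12.5 and 10.6 times. At Id1, 2 regions 1.75 and 3.27 kb downstream had 12.6 and 12.5 times. Of the regions called in all libraries, a background of over 8 times was found at 10 of 22 at the Id loci, at 2 of 47 at the E protein loci and at 4.06% of 53245 in the series. Both E protein regions lay downstream of Tcf12 and not within it.

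**Figure D2:**
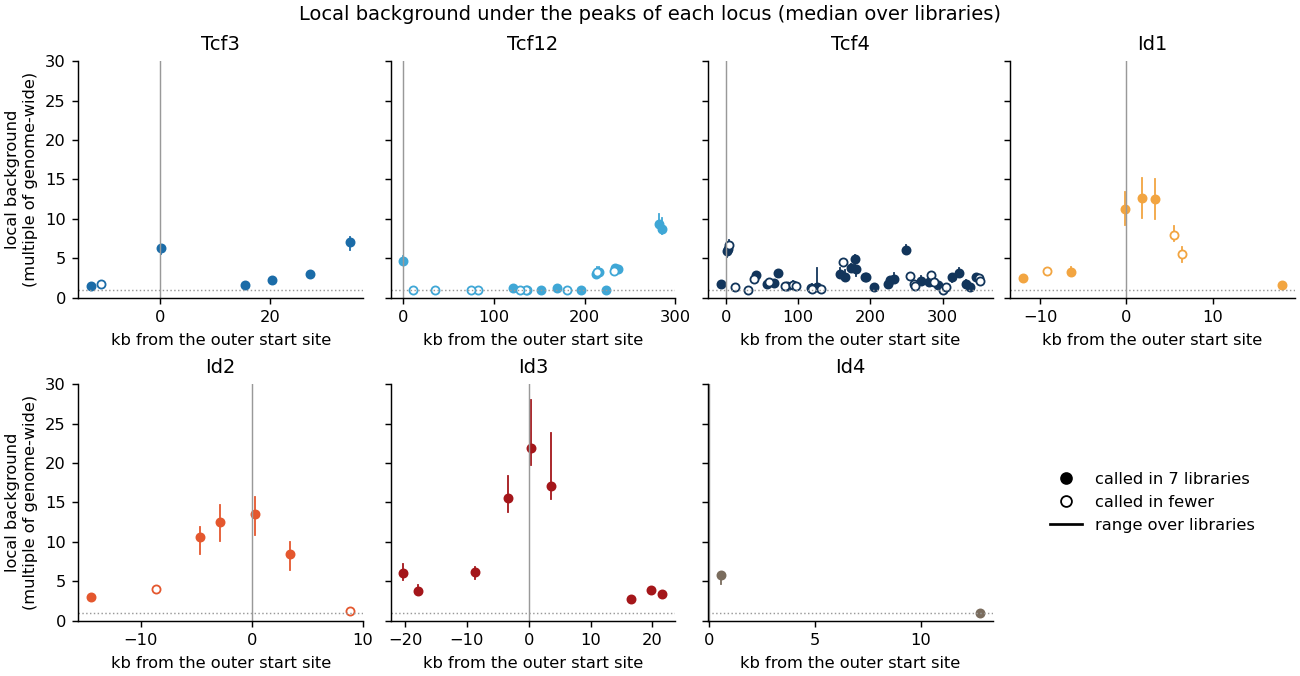
Local background under each region, as a multiple of the genome-wide background of the library (y axis), against the distance from the outer start site of the gene in kb (x axis); points are medians over the libraries with a peak, bars their range, filled points regions called in all 7 libraries. Id1, Id2 and Id3 rise to 12.6, 13.6 and 21.9 times at or near the start, whereas most regions inside Tcf12 lie at about 1.

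Peaks were also packed densely at these loci. The Id3 window of 41.6 kb held 8, 8, 9 and 8 peaks in Nedd4L-cKO and 8, 8 and 8 in WT libraries. That was 19.6 peaks per 100 kb. Among the 17931 protein-coding genes with a peak in their window in at least 1 library, this was the 99.8th percentile. The median of these genes was 5.71, and genes without a peak were left out. Peaks covered 20.3 to 23.1% of the Id3 window, against a median of 5.44% over the same genes. Id1, with 6 to 8 peaks per library, lay at the 99.2nd percentile of density and Id2, with 5 or 6, at the 92.9th. Id4 held 2 peaks in every library. Tcf3 and Tcf4, with 6 to 8 and 36 to 43, lay at 81.3 and 80.8. Tcf12, with 15 to 19, was near the median of the genes with a peak at 48.0.

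The number of peaks and the bases they covered were close in both genotypes at every member. An exact permutation test, two-sided and over all 35 assignments of the genotypes, gave no member a p under 0.05 for either measure, and the smallest p it allows is 0.0286. Over 17931 protein-coding genes, 92 (0.513%) passed for peaks and 250 (1.39%) for bases, and 0 passed after Benjamini-Hochberg adjustment. The lowest p at a member was for Id3, where peaks of Nedd4L-cKO libraries covered 9322 ± 318 bases (SD, n = 4) and those of WT libraries 8774 ± 374 (SD, n = 3), with an exact permutation p of 0.114. The highest Tcf4 count, 43 peaks, was that of Nedd4L-cKO replicate 4, the deepest library, whose peaks filled 23 of the 37 regions at the members that were not called in every library, against 12 to 15 in the others.

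Of the 106 regions, 69 were called in all 7 libraries, or 65.1%, against 56% of all regions. The share was 22 of 27 at the Id genes and 47 of 79 at the E protein genes, and 13 regions were called in 1 library only. No region at a member was called in all 4 Nedd4L-cKO and no WT library, nor in all 3 WT and no Nedd4L-cKO library. Such regions made up 0.0694% and 0.082% of the series.

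Differences in strength were tested with limma on the ranks of fold enrichment, turned into normal scores so that 1 unit is 1 SD of the ranks. After adjustment over all 53245 regions called in every library, 0 regions at the members and 0 in the series (0%) passed at 0.05. At an unadjusted p under 0.05 there were 3 of the 69 regions at the members, or 4.35%, against 3.98% of all regions (2.21% lower in Nedd4L-cKO), so the members' share was near the background. The median difference, Nedd4L-cKO minus WT, was -0.03 at the members and 0.01 over all regions.

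The 3 regions were 1 inside each E protein gene, each lower in Nedd4L-cKO, and 0 of the 22 tested at the Id genes. That was 6.38% of the 47 tested at the E protein genes, against 3.98% of all regions. A difference between the families was not tested, and the numbers are small. The 3 were also the only ones of the 69 in which the fold percentiles of the genotypes did not overlap, which rests on the same fold values. Regions of that kind made up 1.88% of the series with Nedd4L-cKO below WT and 3.08% with Nedd4L-cKO above. In such pools of cells, a weaker signal in every cell and fewer cells with an open site cannot be told apart. Without WT replicate 3, the single library of lane 2, 6 regions had an unadjusted p under 0.05, against 4.39% of all regions then tested. The 3 were among them, and the others were 2 in Tcf4, at -0.67 and 0.57, and 1 at the neighbouring gene Uqcr11, at 0.50, so that 2 of the added regions were higher in Nedd4L-cKO.

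**Figure D3:**
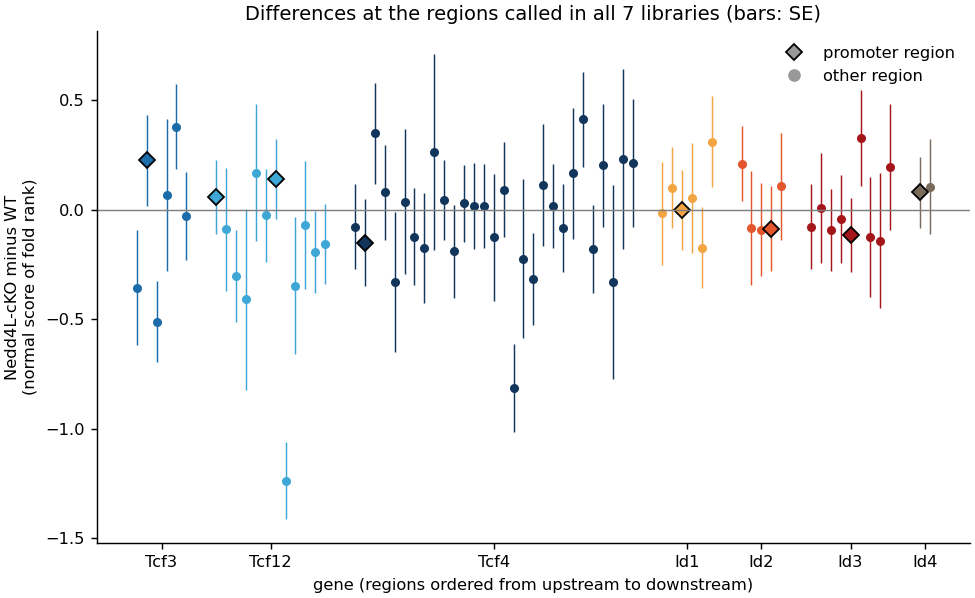
Difference between Nedd4L-cKO and WT in the normal score of the fold rank (y axis, limma estimate with SE bars) for the 69 regions called in all 7 libraries, ordered along each gene from upstream to downstream (x axis); diamonds are promoter regions. The promoters lie within -0.15 and 0.22, and the lowest points are the regions inside Tcf12 (-1.24), Tcf4 (-0.81) and Tcf3 (-0.51).

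The Tcf12 region, chr9:71888028-71889119 on mm10, lies inside the gene 223 kb downstream of its outer start and 7.52 kb beyond its internal one. Its fold percentile was 14.9, 22.9, 20.4 and 19.5 in the Nedd4L-cKO and 67.6, 56.4 and 59.2 in the WT libraries. All Nedd4L-cKO libraries were low and all WT libraries were in the upper middle. The difference of -1.24 ± 0.18 (SE) had the lowest unadjusted p of all 53245 regions in limma, 5.36e-05, which became 1.00 after adjustment and 0.514 to 1.00 over the alternatives tried. Its pileup percentile also did not overlap, at 4.28, 7.78, 5.87 and 6.48 against 31.0, 22.6 and 26.8. The local background there was at the genome-wide level, so fold follows pileup and the pileup values largely restate the fold values. Of all regions, 1.37% were lower and 1.85% higher in Nedd4L-cKO in this way.

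The signal there was weak in both genotypes. Nedd4L-cKO libraries had a mean pileup of 7.30 ± 0.70 tags (SD, n = 4) and WT libraries of 10.2 ± 1.02 (SD, n = 3), below the library medians of 13.7 to 16.9. Pileup is not scaled to depth, so these means do not measure the difference between the genotypes. The local background was at the genome-wide level, 0.999 to 1.04 times, in every library. Without WT replicate 3, the difference was -1.27, and over all libraries left out in turn it lay between -1.30 and -1.13. The region was named for its low p in these same libraries, so these values are no separate test of it.

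**Figure D4:**
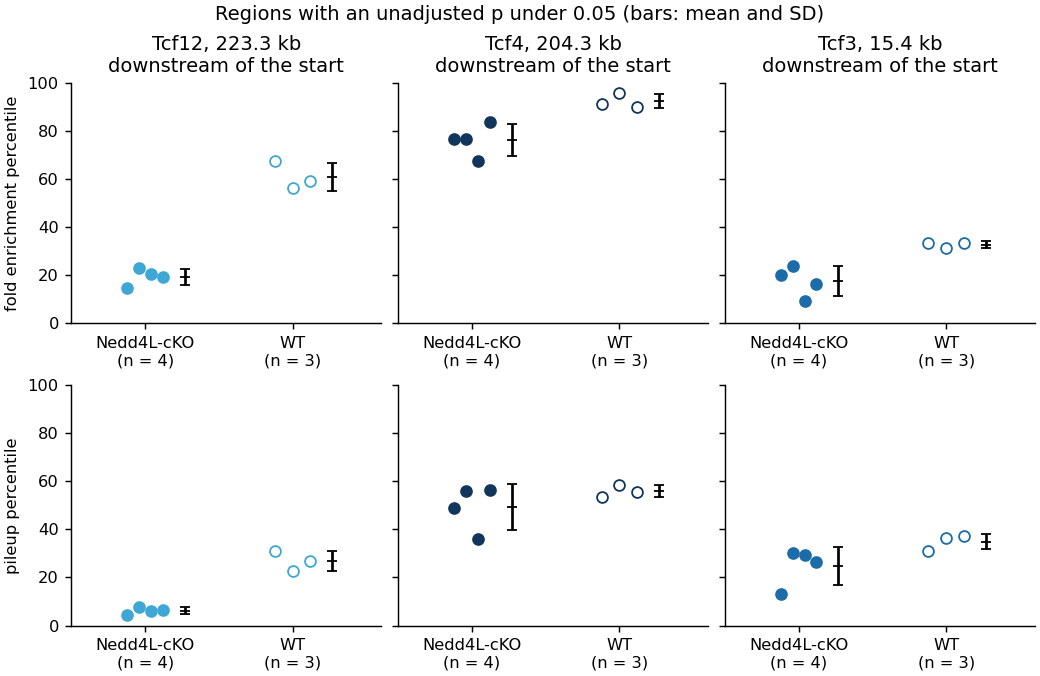
Fold enrichment percentile (upper row) and pileup percentile (lower row) of the 3 regions with an unadjusted p under 0.05, by library; bars are mean and SD beside the points (Nedd4L-cKO, n = 4; WT, n = 3). The genotypes are separate in all upper panels, and in the lower panels they overlap at Tcf4.

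At no other region of Tcf12 was the unadjusted p under 0.05. The gene held 20 regions within its span, its promoters included, and 10 of these had a peak in every library whereas 3 had a peak in 1 library. TCF12, also named HEB, is the E protein partner of MYOD at many muscle genes. The region at its outer start, chr9:72110629-72112336, was the strongest by fold at 76, 82.3, 81.7 and 79.8 in Nedd4L-cKO and 74.6, 81.9 and 78.4 in WT libraries, with a difference of 0.06 ± 0.17 (SE) and an unadjusted limma p of 0.730. The region at the internal start, chr9:71894759-71896717, was weak by fold, at percentiles of 3.60 to 12.9, and differed by 0.14 ± 0.18 (SE). Values of the genotypes overlapped at both.

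By pileup, peaks were low through most of the gene after its outer promoter. Of the 20 regions within Tcf12, 13 had a median background of less than 1.5 times the genome-wide level. Up to 196 kb downstream of the outer start, those called in all libraries lay 121, 152, 170 and 196 kb from it, with median fold percentiles of 71.5, 54.1, 66.3 and 71.8 and median pileup percentiles of 40.4, 23.9, 37.2 and 37.1. Their differences were -0.09, -0.30, -0.41 and 0.17, with unadjusted limma p-values of 0.756, 0.179, 0.347 and 0.603. In the same stretch, regions called in part of the libraries lay 10.6, 35.4, 74.4, 82.9, 129, 136, 137 and 181 kb downstream. The one at 74.4 kb was called in 4 Nedd4L-cKO and 2 WT libraries, the one at 136 kb in 3 and 3, that at 129 kb in 3 and 1 and that at 137 kb in 2 and 1. The region at 35.4 kb was called in 1 and 1, and those at 10.6, 82.9 and 181 kb in 1 Nedd4L-cKO library each.

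From 213 kb on, which includes the internal start, regions other than the one at 223 kb were stronger by pileup. Regions 213, 234 and 237 kb downstream of the outer start were called in all 7 libraries, with median fold percentiles of 24.0, 31.6 and 71.5, pileup percentiles of 57.9, 67.1 and 81.9 and backgrounds of 3.04 to 3.72 times. Their differences were -0.03, -0.35 and -0.07, none at an unadjusted p under 0.05. The region at 214 kb was called in 3 and 3 libraries and the one at 232 kb in 2 and 1. Beyond the gene, regions 282 and 286 kb from the outer start had pileup percentiles of 93.3 and 99.1, the latter the highest of the locus, and differences of -0.19 and -0.16.

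**Figure D5:**
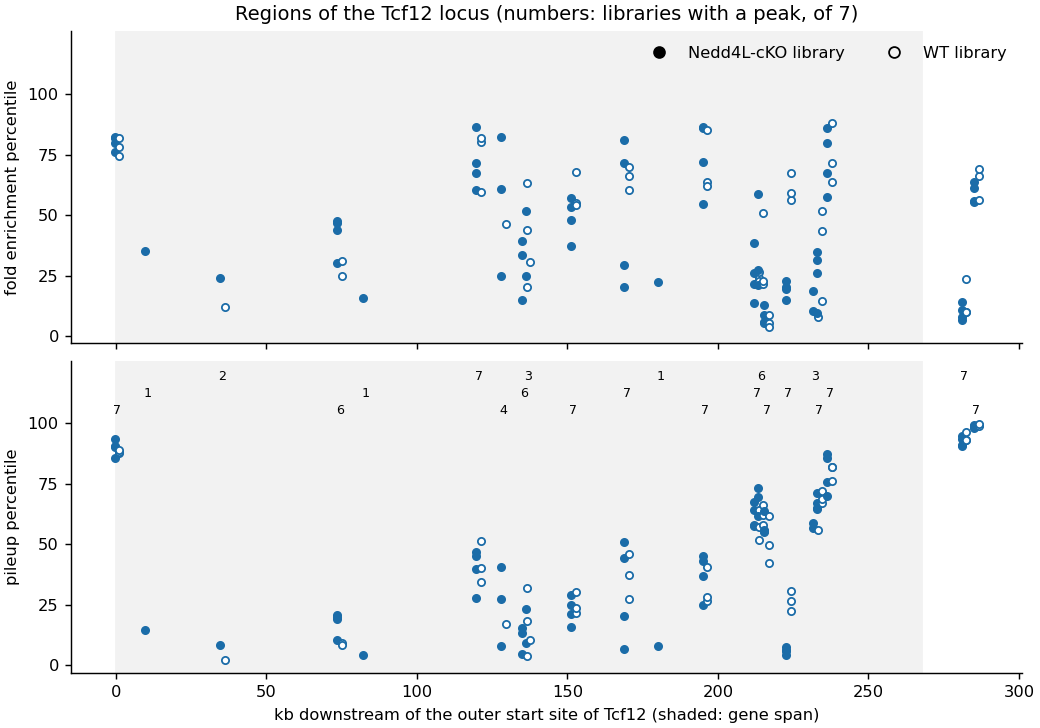
Fold enrichment percentile (upper panel) and pileup percentile (lower panel) of each region of the Tcf12 locus by library (filled, Nedd4L-cKO; open, WT) against the distance downstream of the outer start in kb (points of the genotypes are moved slightly apart); numbers give the libraries with a peak, of 7, and shading the gene span. At 223 kb the 4 filled points lie below the 3 open ones in both panels.

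The Tcf4 region, chr18:69547299-69548179, lies inside the gene 204 kb downstream of its outer start. TCF4, also named E2-2, is the third E protein. The fold percentile was 76.8, 76.6, 67.7 and 84.0 in Nedd4L-cKO and 91.4, 95.9 and 90.2 in WT libraries, a strong region in both genotypes that was lower in every Nedd4L-cKO library. The difference was -0.81 ± 0.20 (SE), with an unadjusted limma p of 0.00258 that was reached or passed by 77 of 53245 regions. By pileup the genotypes overlapped, at 49.0, 55.9, 36.1 and 56.2 against 53.7, 58.6 and 55.7, and the difference was -0.21 (unadjusted limma p of 0.194).

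Tcf4 held the most regions, 50, with peaks in every library at 29. Of the 50, 45 lay inside the gene away from the outer start, and 1 lay within 1 kb of a start of another gene. Differences were above 0 at 16 of the 29 and below 0 at 13. The strongest, chr18:69469217-69470226, had a median fold percentile of 93.1 but varied within each genotype, from 71.6 to 99.4 in Nedd4L-cKO and from 83.4 to 96.8 in WT libraries. Its difference of 0.26 ± 0.45 (SE) had the widest error among the regions named here. At the promoter region of Tcf4, chr18:69343998-69344648, the difference was -0.15 ± 0.20 (SE), with an unadjusted limma p of 0.465.

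The Tcf3 region, chr10:80417965-80419240, lies inside the gene 15.4 kb downstream of its outer start. TCF3 gives rise to E12 and E47, splice forms that both pair with MYOD. Its fold percentile was 20.2, 24.0, 9.42 and 16.2 in Nedd4L-cKO and 33.6, 31.2 and 33.6 in WT libraries, low in both genotypes. The difference was -0.51 ± 0.19 (SE), with an unadjusted limma p of 0.0215. By pileup the percentiles of 13.1, 30.3, 29.3 and 26.6 against 31.2, 36.6 and 37.1 did not overlap either, and the unadjusted limma p was 0.0523. By fold, the p of this region was above 0.05 without Nedd4L-cKO replicate 3, Nedd4L-cKO replicate 4 or WT replicate 1.

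At the other regions of Tcf3 no difference reached an unadjusted p of 0.05. The promoter region, chr10:80432799-80434543, differed by 0.22 ± 0.21 (SE). The region with the highest median fold percentile, 84.1, lay at the start of the neighbouring gene Uqcr11 and differed by 0.38 ± 0.19 (SE), with an unadjusted limma p of 0.0820. A further region lay at the start of Mbd3, so that 2 of the 7 regions in the Tcf3 window were promoters of other genes.

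No region at the Id genes reached an unadjusted p of 0.05. At the promoter of Id1, chr2:152734980-152737145, the fold percentile was 2.35, 2.71, 6.48 and 4.25 in Nedd4L-cKO and 4.63, 2.88 and 4.37 in WT libraries, and the difference was -0.0025 ± 0.18 (SE). At Id2, chr12:25095109-25096568, it was -0.09 ± 0.19 (SE). At Id3, chr4:136143162-136145152, it was -0.12 ± 0.17 (SE), and at Id4, chr13:48260515-48262870, it was 0.08 ± 0.16 (SE). The unadjusted limma p-values of these promoters ran from 0.510 to 0.989. On simulated data with 200 shifted regions, the test recovered 50% of those shifted by 1.5 units and 73.5% of those shifted by 2. Shifts of these sizes or smaller could thus be missed. A region shifted alone would meet a stricter cutoff after adjustment, so these shares can be too high for a single promoter.

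Away from the promoters, the lowest unadjusted p-values at the Id loci were 0.167 at Id3, 0.168 at Id1 and 0.252 at Id2. The Id3 region, chr4:136146129-136148606, lies downstream of the gene and differed by 0.33 ± 0.22 (SE). The Id1 region, chr2:152753632-152754798, differed by 0.31 ± 0.21 (SE) and lies at the start of the neighbouring gene Cox4i2. The Id2 region, chr12:25109859-25111165, lies 14.4 kb upstream of Id2 and was the strongest of its locus by fold, at 93.4, 95.9, 91.0 and 94.3 in Nedd4L-cKO and 91.1, 92.1 and 90.0 in WT libraries. Its background of 3.06 times set it apart from the 4 regions nearer to the gene, at 8.40 to 13.6 times. At Id4, a region 12.8 kb downstream, at the start of the non-coding gene A330048O09Rik, had a median fold percentile of 85.2 at a background of 1.00 times. The 2 regions at Id4, its promoter region included, each lay within 1 kb of an annotated start of another gene.

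For each member, the protein-coding gene with the most similar promoter was found by the mean absolute difference of fold percentiles over the 7 libraries. This was Jun, a subunit of AP-1, for Id2 (1.29 points), Zfp36, which encodes an mRNA decay factor, for Id3 (0.0511 points) and Adamts1, which encodes a secreted metalloprotease, for Id1 (0.60 points). It was Caprin1, which encodes an RNA-binding protein, for Id4 (1.44 points), Mrln, which encodes a micropeptide of muscle calcium handling, for Tcf12 (1.15 points), Aaas, which encodes a nuclear pore protein, for Tcf4 (2.08 points) and Tmem140 for Tcf3 (2.70 points). These describe likeness of fold level in 7 libraries alone, and pileup was not used. Id1, Id2 and Id3 lie near the low end of the fold percentiles, which limits how far low values can differ. The points of different members are thus not comparable.

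Among 29 other genes of the pathway, no promoter passed the test either. Of 21 E-box factors and their regulators, all 21 promoters were called in all 7 libraries, with 11 differences above 0 and 10 below and a median of 0.01. None passed at an unadjusted p under 0.05, against 3.98% of all regions. The lowest was Bhlhe41, a circadian repressor that binds E-boxes, with a difference of 0.44 and an unadjusted limma p of 0.0590. The partners Myod1, Myf5 and Myog differed by 0.04, -0.05 and 0.36, with unadjusted limma p-values of 0.841, 0.778 and 0.123. The promoters of all 8 BMP receptor and SMAD genes were called in all 7 libraries, with 4 differences on either side of 0 and a lowest unadjusted limma p of 0.367, at Smad6, an inhibitory SMAD.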

How the data were processed

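Read pairs were aligned by the authors to mm10 with BWA 0.7.17 after trimming with Trimmomatic 0.39, and duplicates were removed with Picard 2.26.3, per the submitters' processing notes. Peaks were called by the authors in each library on its own with MACS2 2.2.7.1, in broad mode, without a control and with q cutoffs of 0.1 (broad) and 0.05 (narrow), per the file headers. The deposited pileup is a signal: tags extended to 200 bp, averaged along the peak and left at the depth of the library. The deposited fold is a ratio, the pileup over the background of the region. The p-value and q-value columns that the authors deposited hold −log10 values. Depth was read from the tags kept, per the file headers.

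Fold and pileup were turned into percentiles among all peaks of a library on chromosomes 1 to 19, X and Y. The local background was computed from each peak as (pileup + 1)/fold − 1 and divided by the genome-wide background. Peaks overlapping by at least 1 bp were merged, and a region took a library's highest value. Ranks of fold over the 53245 regions called in all libraries were tested with limma 3.58.1 in R 4.3.3, with Benjamini-Hochberg adjustment and no covariate. Simulated data with the real layout were used to test it: of 200 shifted among 53245 regions, 50% were recovered at a shift of 1.5 units and 73.5% at 2. False calls numbered 1 and 9. Peaks and bases per gene were compared by exact permutation (scipy 1.17.1, Python 3.11.15).

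Gene spans and starts came from RefSeq on GRCm38, with strands from GENCODE. An exon annotation was not used here, so exons and introns were not told apart. The rule for the regions uses no measured value, but the members, gene lists and tests were chosen with earlier results of these data known. Named regions were, by rule, the promoters of each member, its region with the highest median fold percentile, its region with the lowest p and all regions inside Tcf12. Same-numbered replicates did not deviate together (r from -0.12 to 0.03), so the numbers were not used as pairs. No 2 libraries shared an identical peak (0). The narrow-within-broad lists and the score column of the deposited files were not used, nor were 2 mitochondrial peaks per library. The alternatives are given in the closing section.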

Additional observations from a re-analysis of the deposited data

Results flagged for a closer look

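In the 4 Nedd4L-cKO libraries, 1 library stood far from the other 3 (Dixon's ratio above its 95% critical value) for 7 of the 52 measures checked; chance gives about 1 in 20. Nedd4L-cKO replicate 4, the deepest library, had 8 peaks at the Tcf3 locus against 6 in each of the others and 43 at Tcf4 against 36 to 37. It also had a pileup percentile of 64.0 at the internal start of Tcf12, against 55.3 to 55.8, and a fold percentile of 0.594 at the Id3 region downstream of the gene, against 0.0544 to 0.136. Nedd4L-cKO replicate 3 had 8 peaks at Id1 against 7, 9 at Id3 against 8, and a pileup percentile of 97.7 at the Tcf3 promoter against 95.7 to 96.0. Counts that differ by 1 peak pass this rule whenever the other libraries are tied. The part of depth in these values was not tested.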

How the results depend on the processing

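No region at the members passed adjustment under any alternative (0 in each), no region separated the genotypes by its calls at a −log10 q of at least 5 or with any library left out (0 in each). The exact test gave 0 members a p under 0.05 for peaks or bases with other flanks or the same number of peaks, nor for peaks at a −log10 q of at least 5. It could not reach 0.05 with a Nedd4L-cKO library left out (smallest p 0.10), with a WT library left out (0.067) or with the replicate block (0.25), so these say nothing on stability. The 3 regions at an unadjusted p became 1 (Tcf12) when ranked by pileup, where the Tcf4 region had -0.21 and p 0.194 and the Tcf3 region p 0.0523 (unadjusted, limma), and 1 (near Uqcr11 at Tcf3, higher in Nedd4L-cKO by 0.43) at a −log10 q of at least 5, where the Tcf12, Tcf4 and Tcf3 regions were not called in all libraries. With a library left out they numbered 2 to 6, the highest, 6, without WT replicate 3. A replicate block left 2 of them, Tcf12 and Tcf4, and 0 after adjustment; the numbers do not pair the samples. The 69 regions called in all libraries became 23 at a −log10 q of at least 5 and 44 without flanks, since both remove regions, and 69 to 71 with a library left out. All 7 promoters stayed called except Tcf4 with a window of 0.5 kb and Id3, called in 4 of 7 libraries, at a −log10 q of at least 5. Small differences changed sign: the Id1 promoter (0.026 by pileup, 0.098 percentile points by percentile rank and -0.096 to 0.066 with a library left out), the Id3 promoter (0.020 by pileup), the Id2 promoter (-0.22 to 0.030 with a library left out) and the outer Tcf12 promoter (-0.0075 to 0.13). The cause was not tested. Of 255 other values under an alternative, single differences kept their direction and an adjusted p above 0.05, and counts stayed within 1.5 times.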
